A study of Mus musculus with 3 samples.

Results

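Microvascular endothelial nuclei were taken here as endothelial nuclei of the mouse abdominal aorta that held few transcripts of the large-vessel lining. A nucleus had to carry at least 500 UMIs (unique molecular identifiers, each standing for 1 captured transcript) from at least 300 genes, with under 5% of its UMIs on mitochondrial (mt-) genes. It was then chosen if UMIs were found for at least 3 of the 8 endothelial genes Pecam1, Cdh5, Ptprb, Flt1, Cyyr1, Adgrl4, Emcn and Kdr and for at most 1 of the 5 large-vessel genes Bmp6, Pgm5, Edn1, Ddah1 and Col23a1. At most 1 of the 4 lymphatic genes Prox1, Flt4, Reln and Mmrn1 was allowed, as were fewer than 3 UMIs of Pkhd1l1. This rule chose 829 of 30730 kept nuclei. Because it reads the measured counts, the levels of these genes in the chosen nuclei are described below and support nothing further.

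The blood vessel lining differs along the vascular tree. Endothelial cells of the aortic intima face fast flow and a thick wall, whereas the capillaries and small veins that feed the outer wall (the vasa vasorum) and the surrounding fat exchange fatty acids, water and leukocytes with the tissue. Capillary endothelium of fat and muscle takes up fatty acids through Cd36, Fabp4 and the lipase anchor Gpihbp1, under the transcription factors Meox2 and Tcf15, while small veins carry Nr2f2 and the leukocyte receptors Selp and Vcam1.

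Nuclear RNA came from ApoE-/- mice of the C57Bl/6 strain, which lack apolipoprotein E and are prone to atherosclerosis, and all groups received a high-fat diet. The room air library held nuclei of mice kept in room air for 20 weeks, the smoke library those of mice given cigarette smoke for the same time without an abdominal aortic aneurysm (AAA), and the aneurysm library those of smoke-exposed mice with one. Per the labels' protocols, aortae were frozen and nuclei were purified with anti-nucleus beads, a step that can itself set the share of a cell type. With 1 library per group, and with the age, sex and number of mice per library not given in the sources used here, group, animal and library cannot be told apart and no test between groups was possible. Parentheses after a level, share or ratio hold exact 95% intervals (Poisson for levels, Clopper-Pearson for shares, conditional binomial for ratios), which cover counting error only and not the variation between nuclei, mice or preparations.

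The libraries differed in depth, and the aneurysm library was the shallowest. Kept nuclei had a median of 4058.5 UMIs in room air, 6225 in smoke and 1443 in aneurysm, from totals of 73891039, 117247048 and 15634797 UMIs over all deposited barcodes. The chosen nuclei had medians of 2868, 6146 and 1369 UMIs, and together held 1033402, 2748886 and 669172 UMIs. Between libraries 101 barcodes were shared, and 4 of the chosen nuclei carried a shared barcode, with no barcode common to chosen nuclei of 2 libraries. No doublet caller was run, so nuclei holding RNA of 2 cells remain among those chosen.

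The rule chose 175 of 11022 kept nuclei in room air, 303 of 14001 in smoke and 351 of 5707 in aneurysm. These were 1.59% (1.36 to 1.84), 2.16% (1.93 to 2.42) and 6.15% (5.54 to 6.80) of kept nuclei. Among all nuclei with 3 or more of the endothelial genes they made up 10.2%, 13.2% and 37.8%. Large-vessel endothelial nuclei, defined by 2 or more of the large-vessel genes, numbered 1252, 1414 and 512, or 11.4%, 10.1% and 8.97% of kept nuclei. At full depth the chosen nuclei were thus a small minority of the endothelium in room air and smoke and a larger one in the aneurysm library.

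With the rule applied at full depth, the endothelial label held for most chosen nuclei of the aneurysm library but went against the counts in many of the other libraries. Of the chosen nuclei, 85 in room air (48.6%) and 156 in smoke (51.5%) had exactly 3 endothelial genes, against 93 in aneurysm (26.5%). These 3-gene nuclei differed in depth, with medians of 2919, 8716.5 and 868 UMIs. They had 1011, 617 and 4165 counts per 1000000 UMIs (CPM) on the 8 endothelial genes together. On 12 macrophage genes (such as the mannose receptor Mrc1 and the coagulation factor F13a1) they had 4899, 4383 and 808 CPM, so macrophage transcripts outnumbered endothelial ones in room air and smoke. Nuclei just outside the rule, with 2 endothelial genes, had 405, 326 and 1112 endothelial CPM and 4899, 4813 and 789 macrophage CPM. The few nuclei with all 8 endothelial genes (8, 27 and 17) had 7918, 11400 and 14600 endothelial CPM and 812, 944 and 448 macrophage CPM.

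**Figure D1:**
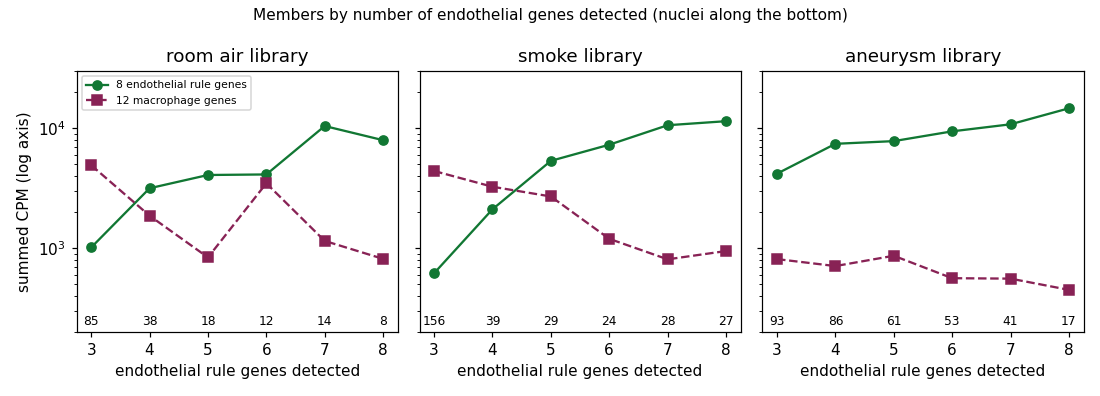
Summed CPM (log axis) of the 8 endothelial rule genes (circles) and of 12 macrophage genes (squares) in the chosen nuclei, grouped by how many endothelial genes were detected (horizontal axis), with 1 panel per library and the number of nuclei along the bottom. In nuclei with 3 endothelial genes the macrophage genes lay above the endothelial genes in room air and smoke and below them in the aneurysm library.

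A stricter subset was therefore formed after seeing these data. A chosen nucleus was called endothelial-led when its UMIs on the 8 endothelial genes exceeded its UMIs on each marker list of another cell class (macrophage, adipocyte, smooth muscle, pericyte, fibroblast, lymphocyte, mesothelial, nerve or striated muscle). Ebf1, a transcription factor that stood in both the pericyte and the B cell list, was left out of this count because the chosen nuclei themselves held it. The subset took 106 of 175 chosen nuclei in room air (60.6%, 52.9 to 67.9), 145 of 303 in smoke (47.9%, 42.1 to 53.6) and 323 of 351 in aneurysm (92.0%, 88.7 to 94.6). Its nuclei had medians of 2086.5, 3619 and 1274 UMIs. The comparisons below give the endothelial-led nuclei beside all chosen nuclei for the gene counts and gene lists, and single genes for the set named with them.

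Among endothelial-led nuclei, which were selected for their endothelial UMIs, the libraries had similar levels of other endothelial genes. A list of 24 endothelial genes outside the rule (among them the angiopoietin receptor Tek and the junction protein Cldn5) summed to 9833, 8621 and 22130 CPM over all chosen nuclei, but to 21090, 21300 and 23920 CPM over the endothelial-led ones. Large-vessel nuclei had 20780, 19850 and 24180 CPM on the same list. The definition of the subset favours endothelial UMIs and bounds the marker lists of other classes. The levels of the endothelial list and of the other lists in it are therefore a description that supports nothing further. The macrophage list stood at 3382, 3492 and 665 CPM over all chosen nuclei and 1033, 1004 and 606 CPM over the endothelial-led ones. In large-vessel nuclei it reached 915, 1411 and 353 CPM, and in non-endothelial nuclei 5465, 6009 and 1959 CPM. All 12 macrophage genes had UMIs in the chosen nuclei of each library, and at least 3 of them were found in 49.7%, 70.0% and 6.84% of these nuclei. The part that this macrophage RNA plays in the comparisons of all chosen nuclei was not tested.

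The sums of other marker lists in endothelial-led nuclei were bounded by the definition in the same way. Fibroblast genes summed to 321, 338 and 486 CPM, against 1178, 1542 and 635 CPM over all chosen nuclei. Smooth muscle genes stood at 175, 165 and 208 CPM, against 625, 1006 and 268 CPM. Adipocyte genes summed to 587, 833 and 800 CPM, while Adipoq, the adipocyte hormone adiponectin, had 0, 2 and 0 UMIs in endothelial-led nuclei. The pericyte list stood at 2972, 3360 and 4294 CPM, almost all of it Ebf1 at 2905, 3308 and 4233 CPM. In large-vessel nuclei Ebf1 was at 319, 592 and 882 CPM. Mesothelial genes summed to 0, 2.75 and 1.69 CPM.

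As a share of kept nuclei, endothelial-led nuclei were similar in room air and smoke and higher in the aneurysm library. They made up 0.962% (0.788 to 1.16) in room air, 1.04% (0.875 to 1.22) in smoke and 5.66% (5.07 to 6.29) in aneurysm. The ratio of smoke to room air was 1.36 (1.13 to 1.65) for all chosen nuclei and 1.08 (0.833 to 1.40) for the endothelial-led ones, whose interval includes 1. Leaving out nuclei with 3 or more genes of another class turned the ratio of smoke to room air to 0.670, the opposite direction. That filter counts detected genes and so depends on depth. It also takes out endothelial-led nuclei, of which 30.19%, 48.97% and 5.26% held at least 3 macrophage genes. The ratio of aneurysm to smoke was 2.84 (2.43 to 3.33) for all chosen nuclei and 5.47 (4.48 to 6.70) for the endothelial-led ones. Fewer nuclei of another type would raise such a share as much as more endothelial nuclei would, and these cannot be told apart.

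Depth enters the rule, since a shallow nucleus shows fewer genes of any kind. To set the libraries at 1 depth, each nucleus with at least 1000 UMIs was thinned to 1000 UMIs and the rule was applied again, which left out 1036, 933 and 1692 shallower nuclei. The chosen share was then 1.81% (1.56 to 2.09) in room air, 2.45% (2.19 to 2.73) in smoke and 6.60% (5.85 to 7.41) in aneurysm. The order of the libraries at equal depth was that at full depth. Among nuclei with 3 or more endothelial genes at 1000 UMIs, the chosen ones made up 19.65% (17.13 to 22.37), 26.45% (23.98 to 29.03) and 47.24% (43.04 to 51.46). These shares of the endothelium were higher than at full depth, and the aneurysm library stood less far above the others. Of the 181, 320 and 265 nuclei chosen in this way, 79, 145 and 75 counted as large-vessel nuclei at full depth. At this depth nuclei with 2 or more large-vessel genes at full depth thus met the rule in each library. Of the nuclei chosen at 1000 UMIs, 166, 290 and 254 had the endothelial lead at full depth. The libraries thus differed less in this share than they did with the rule at full depth.

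**Figure D2:**
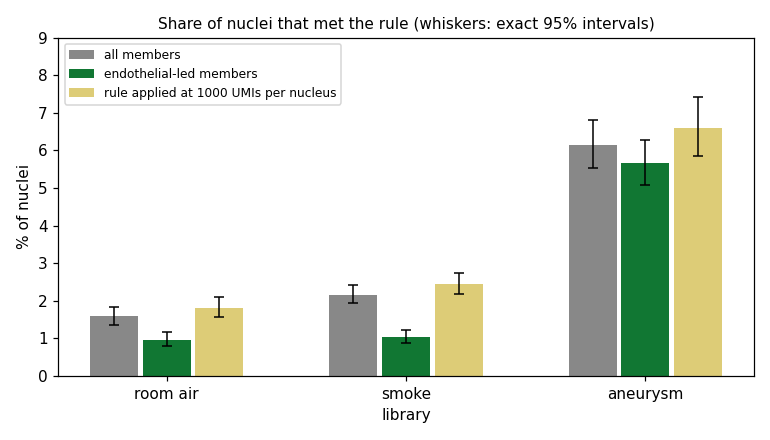
Share of nuclei (vertical axis, % of kept nuclei; % of nuclei with at least 1000 UMIs for the thinned counts) by library, for all chosen nuclei (grey), endothelial-led nuclei (green) and the rule applied at 1000 UMIs per nucleus (yellow), with exact 95% intervals. The aneurysm library stands at 5.66% to 6.60% and the others at 0.962% to 2.45%.

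Cd36 and the sum of the capillary genes were highest in endothelial-led nuclei with exactly 1 large-vessel gene, just inside the bound, and lower on both sides of it. Among endothelial-led nuclei 32, 41 and 121 held no large-vessel gene and 74, 104 and 202 held 1, which was Bmp6, a bone morphogenetic protein, in 48, 56 and 122 of them. Just outside, 109, 130 and 110 nuclei with the same endothelial lead held 2 large-vessel genes. Cd36 was at 459, 249 and 562 CPM with no large-vessel gene, at 866, 926 and 2276 CPM with 1, and at 258, 255 and 574 CPM with 2. The capillary genes together had 2065, 3571 and 3964 CPM, then 3694, 4596 and 7098 CPM, then 2139, 2871 and 3312 CPM. This order, with Cd36 and the capillary sum falling at the bound, was seen in each library. It did not hold for every capillary gene. Kitl in smoke had 1238, 933 and 445 CPM, and Btnl9 in room air 76.5, 12.6 and 16.9 CPM from 8, 3 and 7 UMIs. In the other libraries both genes followed the order. Depth differed too, with medians of 1601.5, 2669 and 1084 UMIs with no large-vessel gene, 2176, 3757.5 and 1375 with 1, and 2780, 4554.5 and 1975 with 2.

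The 4 genes that gave the set its name were in each library higher in endothelial-led than in large-vessel nuclei. These are rule genes or follow from the rule and are not tested. Kdr, the main receptor of vascular endothelial growth factor (VEGF), stood at 166 (126 to 216), 296 (257 to 338) and 354 (307 to 405) CPM against 22.0, 36.0 and 52.9 CPM in large-vessel nuclei. Flt1, the VEGF receptor that also acts as a decoy, had 920, 1554 and 1663 CPM against 384, 420 and 578 CPM. Adgrl4, an adhesion receptor of angiogenic endothelium, had 838, 1215 and 1590 CPM against 278, 323 and 292 CPM, and Cyyr1 had 1290, 1796 and 1817 CPM against 507, 500 and 644 CPM. Bmp6 went the other way, with 1007, 821 and 804 CPM against 5965, 4935 and 4721 CPM. Pecam1, Ptprb and Cdh5 lay closer to their large-vessel levels. Pecam1 had 1801, 2042 and 1516 CPM against 1714, 1716 and 1825, and Ptprb, a phosphatase of the endothelial junction, had 1661, 1752 and 1587 CPM against 1978, 1967 and 2353. Cdh5, the junctional VE-cadherin, had 447, 357 and 409 CPM against 306, 322 and 310 CPM. Emcn, a sialomucin of veins and capillaries, was higher in endothelial-led nuclei in each library, with 426, 709 and 624 CPM against 209, 218 and 186 CPM. The large-vessel genes Pgm5 (231, 235 and 215 CPM against 2106, 1650 and 1908), Edn1 (40.9, 35.7 and 62.6 CPM against 545, 685 and 850) and Ddah1 (43.8, 22.0 and 37.2 CPM against 580, 491 and 567) were lower, and Col23a1 had 2, 3 and 1 UMIs in endothelial-led nuclei.

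Genes that the rule did not read also set the endothelial-led nuclei apart from large-vessel nuclei, and they are described without a test because the rule separated the same cells. Ccdc85a, a coiled-coil protein, had 648 (566 to 739), 715 (655 to 779) and 1433 (1338 to 1533) CPM against 4.73, 22.7 and 49.2 CPM, a ratio of 137 in room air and 29.1 in aneurysm. Pcdh17, a protocadherin, had 222, 439 and 267 CPM against 4.98, 14.4 and 12.3 CPM. Ablim3, an actin-binding protein, had 140, 326 and 658 CPM against 3.04, 13.5 and 30.1 CPM. In each of these genes all libraries agreed in direction, with ratios of 21.7 or more.

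Several genes of the 20-gene capillary list and the venous gene Nr2f2 followed the same direction, whereas the venous list as a whole, given below, did not. The capillary genes described here are a selection and do not stand for the rest of that list. Cd36, the fatty acid translocase, had 742 (653 to 839), 769 (706 to 835) and 1656 (1554 to 1763) CPM in endothelial-led nuclei against 53.6, 75.0 and 110 CPM in large-vessel nuclei. Meox2 had 108, 116 and 169 CPM against 2.45, 7.20 and 14.6 CPM, and Cd300lg, a mucin-like receptor of capillaries, had 61.3, 94.9 and 142 CPM against 0.929, 3.13 and 4.56 CPM. Nr2f2, the transcription factor of venous fate, had 131, 195 and 203 CPM against 10.4, 21.8 and 28.3 CPM. Kitl, the ligand of the stem cell factor receptor Kit, had 698, 1004 and 978 CPM against 68.4, 80.9 and 115 CPM. Adamts9, a matrix protease, had 864, 979 and 1045 CPM against 39.4, 59.8 and 122 CPM, and Mgll, the lipase that ends the breakdown of stored fat, had 499, 444 and 865 CPM against 36.2, 53.8 and 57.9 CPM. The capillary genes Car4 (2, 11 and 30 UMIs) and Gpihbp1 (2, 6 and 17 UMIs) were found in each library but rarely.

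The nuclei were not purely capillary or venous. Vwf, the clotting protein of veins and large vessels, had 558, 637 and 477 CPM against 838, 856 and 983 CPM in large-vessel nuclei. The arterial connexin Gja5 had 164, 74.2 and 139 CPM against 265, 284 and 348 CPM, and the elastic fibre protein Fbln5 had 175, 113 and 135 CPM against 855, 1019 and 820 CPM. Capillary genes together stood at 3197, 4358 and 5965 CPM, arterial genes at 2420, 2053 and 2204 CPM and venous genes at 4726, 4131 and 3116 CPM, each a sum over its own list. Against large-vessel nuclei (2184, 2224 and 2381; 3762, 4750 and 3944; 5441, 4958 and 4226 CPM) the capillary sum was higher and the other sums were lower in each library. Without Cd36, Kitl, Meox2 and Cd300lg the capillary sum was lower than in large-vessel nuclei in room air and higher in the other libraries. At least 3 capillary genes were found in 42.45%, 72.41% and 63.78% of endothelial-led nuclei. In large-vessel nuclei, which were deeper, the shares were 59.9%, 72.77% and 41.02%.

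Large-vessel genes outside the rule were low but present in the endothelial-led nuclei. Frmd5 had 242, 150 and 240 CPM against 4573, 2992 and 3653 CPM, which is 0.0530, 0.0501 and 0.0658 of the large-vessel level. Nfasc had 14.6, 9.62 and 27.1 CPM against 256, 230 and 305 CPM, or 0.0570, 0.0419 and 0.0889 of that level. Sfrp1, a secreted inhibitor of Wnt ligands, had 73.0, 24.8 and 8.46 CPM against 471, 458 and 193 CPM, or 0.155, 0.0541 and 0.0438 of that level. Some genes named from all chosen nuclei stood out less in this subset. Abi3bp, an extracellular matrix protein, was at 432, 153 and 224 CPM over all chosen nuclei, 61.3, 67.4 and 110 CPM over endothelial-led ones and 21.0, 22.5 and 43.8 CPM in large-vessel nuclei.

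**Figure D3:**
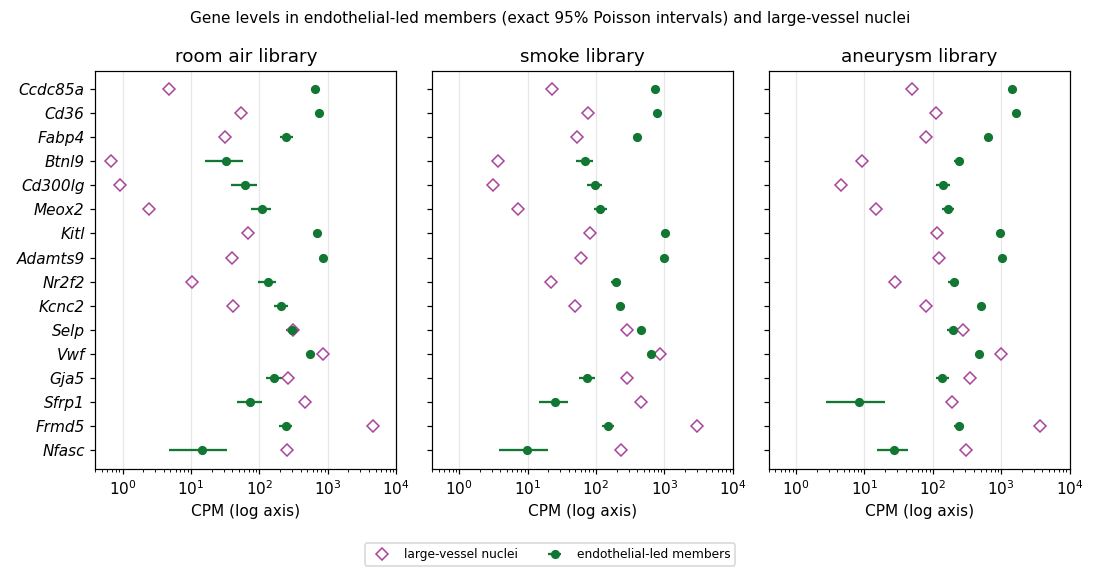
CPM (log axis) of 16 genes in endothelial-led nuclei (filled circles, exact 95% Poisson intervals) and in large-vessel nuclei (open diamonds), 1 panel per library. From Ccdc85a to Kcnc2 the circles lie to the right of the diamonds in each library, and from Vwf to Nfasc they lie to the left.

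Smoke and room air were compared to ask what differs with exposure when no aneurysm formed. In endothelial-led nuclei capillary and fatty acid genes were on balance higher in the smoke library and genes of angiogenic sprouting were on balance lower. Over all chosen nuclei the direction of the sprouting list changed with the setting. Few targets of the aryl hydrocarbon receptor (AhR) and of NRF2, which sense smoke compounds and oxidants, could be measured in endothelial-led nuclei. For NRF2, 14 of 16 targets were measured over all chosen nuclei, with a median log2 ratio of -0.02. In large-vessel nuclei 16 of 16 were measured, with a median of -0.05. A gene was counted when its CPM ratio was at least 1.5 and its interval excluded 1, among genes with at least 50 UMIs over both libraries. Over all chosen nuclei 661 of 7933 genes were higher in smoke (8.33%) and 345 were lower (4.35%). Over endothelial-led nuclei 375 of 3921 were higher (9.56%) and 343 were lower (8.75%), and median-of-ratios scaling made these 459 and 246. Of the 188 higher and 151 lower genes of all chosen nuclei that could be compared in both sets, 132 and 87 were counted the same way in endothelial-led nuclei and 4 and 2 the opposite way.

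Capillary genes in endothelial-led nuclei had a median log2 ratio of 0.52, and 6 of the 13 that could be measured were at least 1.5-fold higher with 0 lower. The median over all genes with at least 20 UMIs was 0.04 with 19.3% higher and 13.1% lower. Over all genes so measured it was 0.05 in all chosen nuclei (18.0% higher and 7.84% lower) and 0.10 in large-vessel nuclei (15.2% and 2.88%). Over all chosen nuclei the capillary median was 0.21, with 1 of 13 higher, and in large-vessel nuclei it was 0.49, with 7 of 16 higher, so the shift was not shown to be particular to the microvascular nuclei. Plvap, the diaphragm protein of fenestrated capillaries, had 29.2 (14.0 to 53.7) CPM in room air, 100 (78.7 to 126) in smoke and 45.7 (30.1 to 66.5) in aneurysm, a 3.44-fold difference (1.77 to 7.47) between smoke and room air. The smoke library was the highest of the 3 for Plvap. Fabp4, the fatty acid binding protein of capillaries and fat, had 248 (198 to 307), 393 (349 to 441) and 651 (588 to 720) CPM, with a ratio of smoke to room air of 1.58 (1.24 to 2.04). Sgk1, a stress-induced kinase, had 93.4, 204 and 188 CPM and a ratio of 2.18 (1.48 to 3.30).

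The fatty acid handling list, which shares Cd36, Fabp4, Gpihbp1, Meox2, Tcf15 and Cav1 with the capillary list, had a median of 0.65 in endothelial-led nuclei, where 7 of 13 genes were higher and 0 lower. Its median was 0.22 over all chosen nuclei and 0.40 in large-vessel nuclei. Cd36 itself did not differ, at 742 CPM in room air and 769 in smoke (ratio 1.04, 0.892 to 1.21). Fmo2, a flavin monooxygenase that oxidises foreign compounds, had 67.1 (42.6 to 101), 239 (205 to 277) and 401 (352 to 455) CPM in endothelial-led nuclei, a ratio of smoke to room air of 3.56 (2.30 to 5.77), and it was higher in smoke over all chosen nuclei too (3.34, 2.51 to 4.53). In large-vessel nuclei Fmo2 had a ratio of 2.38.

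Genes of the angiogenic tip list stood lower on balance in endothelial-led nuclei of the smoke library. The angiogenic tip list had a median of -0.87 in endothelial-led nuclei, with 5 of 9 members at least 1.5-fold lower and 1 higher, against -0.14 over all chosen nuclei and 0.26 in large-vessel nuclei. The median over all chosen nuclei went to 0.32 with no large-vessel gene allowed and to 0.0738 as a mean over nuclei. Without the nucleus holding most UMIs of a gene it was 0.0101, and in the other settings it stayed below 0. Col4a1, Col4a2, Nid2 and Lamb1 stand in the tip list and in the basement membrane list. The basement membrane list had a median of 0.07 in endothelial-led nuclei (3 of 17 higher and 5 lower) and 0.0034 over all chosen nuclei (2 of 18 higher and 3 lower). Col4a1, a basement membrane collagen, had 628 (547 to 717), 309 (270 to 353) and 479 (425 to 538) CPM in endothelial-led nuclei and was 2.03-fold lower (1.67 to 2.46) in smoke, with 50 of its 215 room air UMIs in 1 nucleus. Lamb1, a laminin chain, had 27, 14 and 36 UMIs and was 4.09-fold lower (2.07 to 8.45). In large-vessel nuclei Col4a1 and Lamb1 had ratios of 0.963 and 0.904.

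Arterial genes had a median of -0.41 in endothelial-led nuclei, with 4 of 14 members lower and 3 higher, and -0.35 over all chosen nuclei, with 6 of 15 lower and 2 higher. Gja5 was 2.202-fold lower (1.49 to 3.26) in smoke in endothelial-led nuclei and 2.30-fold lower (1.62 to 3.26) over all chosen nuclei, while in large-vessel nuclei its ratio was 1.07. Ephb1, a receptor of ephrin-B ligands, had 134 (98.3 to 179), 26.1 (15.7 to 40.8) and 94.7 (71.6 to 123) CPM in endothelial-led nuclei and was 5.14-fold lower (2.95 to 9.29) in smoke. It was measured in 12, 11 and 27 nuclei. Venous genes had medians of -0.02 in endothelial-led nuclei and 0.04 over all chosen nuclei.

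The endothelial activation and interferon lists differed in direction between endothelial-led and all chosen nuclei, whereas the other lists of this paragraph did not. The endothelial activation list (adhesion molecules and NF-kappaB targets) had a median of 0.24 in endothelial-led nuclei, with 4 of 13 members higher and 2 lower, and the interferon list 0.25, with 3 of 13 higher and 1 lower. These medians were, over all chosen nuclei, -0.21 (4 of 15 higher and 4 lower) and -0.15 (2 of 18 higher and 4 lower). Large-vessel nuclei had medians of 0.45 and 0.73 for these lists. Icam1, a leukocyte adhesion molecule, was 1.99-fold lower (1.29 to 3.07) in smoke in endothelial-led nuclei, but 27 of its 44 room air UMIs came from 1 nucleus. Handling stress genes, immediate early and heat shock genes that respond to tissue dissection, had medians of 0.36 in endothelial-led nuclei (6 of 13 higher and 0 lower) and 0.23 over all chosen nuclei (4 of 14 higher and 1 lower). In endothelial-led nuclei the NRF2 list had a median of -0.17 with 0 of 6 measured members higher and 1 lower, and the AhR list -0.12 with 0 of 3 past 1.5-fold in either direction, so at this depth few of their genes could be measured. Both lists were near 0 over all chosen nuclei, at -0.02 (2 of 14 higher and 3 lower) and -0.07 (0 of 4 past 1.5-fold). Proliferation genes had medians of -0.09 over all chosen nuclei (1 of 13 higher and 3 lower) and -3.34 in endothelial-led nuclei with 5 of 5 lower, which rested on 1 room air nucleus holding 39 of 43 UMIs of Diaph3 and 23 of 29 UMIs of Top2a.

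The genes with the firmest difference were chosen by the bound of the ratio nearest 1 over all chosen nuclei, and several did not hold in endothelial-led ones. Esrrg, an orphan nuclear receptor of oxidative metabolism, had 2 UMIs in room air, 210 in smoke and 58 in aneurysm over all chosen nuclei (ratio of smoke to room air 39.5, 10.8 to 328), and 2, 128 and 47 in endothelial-led nuclei (30.1, 8.18 to 252). Its 128 smoke UMIs lay in 20 nuclei, and the 2 room air UMIs in 1. Large-vessel nuclei had a ratio of 3.53. Klhl29 had 17.5 (6.43 to 38.1), 209 (177 to 245) and 50.7 (34.2 to 72.4) CPM in endothelial-led nuclei, a ratio of 11.9 (5.36 to 33.0). Cyp2d22, a cytochrome P450, had 1, 43 and 21 UMIs over all chosen nuclei, a ratio of 16.2 (2.75 to 653), and 0, 27 and 20 UMIs in endothelial-led nuclei. Ltbp2, which binds the elastic fibre protein fibulin, was 3.74-fold higher over all chosen nuclei and 3.03-fold (1.36 to 7.96) in endothelial-led ones.

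The other higher genes were not counted in endothelial-led nuclei. The fibroblast genes Col1a2 and Pdgfra were 2.88-fold and 3.27-fold higher over all chosen nuclei, but 1.18-fold (0.618 to 2.37) and 1.18-fold (0.340 to 5.14) in endothelial-led ones. Hs6st2, Acss2 and Gpr39 had ratios of 4.39, 8.37 and 3.44 over all chosen nuclei, against 2.12 (0.439 to 20.2), 4.71 (0.670 to 204) and 1.18 in endothelial-led nuclei, where intervals reached below 1.

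Lower in smoke in both sets were Chrm3, Lars2, Lmcd1 and Kcnn3. Chrm3, the muscarinic acetylcholine receptor through which endothelium releases nitric oxide, had 873 (777 to 978) CPM in room air, 276 (240 to 317) in smoke and 98.1 (74.5 to 127) in aneurysm in endothelial-led nuclei. No 2 of these intervals overlapped, and the smoke level was 3.16-fold lower than the room air level (2.63 to 3.80). In large-vessel nuclei Chrm3 stood at 420, 477 and 166 CPM, so room air and smoke did not differ there in that direction. Lmcd1, a LIM protein, was 1.83-fold lower (1.36 to 2.46) and Kcnn3, a calcium-activated potassium channel, 2.38-fold lower (1.34 to 4.25). Lars2, the mitochondrial leucine tRNA ligase, was 2.202-fold lower (1.86 to 2.61), but it had 643, 262 and 1660 CPM over all other nuclei of the libraries too. Bmper, Tmtc2, Chst11, Megf6, St6galnac3 and Sgms2, 1.96-fold to 2.79-fold lower over all chosen nuclei, were 1.52-fold to 2.52-fold lower in endothelial-led nuclei, with the interval of Bmper reaching 1 (2.34, 0.901 to 6.13). With the rule applied at 1000 UMIs per nucleus, a setting that also takes in large-vessel nuclei, several of these differences were smaller. The log2 ratio of Chrm3 was then -0.25, against -1.22 over all chosen nuclei at full depth and -1.66 in endothelial-led ones. Lmcd1 was at -0.31 against -1.60 over all chosen nuclei, St6galnac3 at -0.29 against -0.97, Tmtc2 at -0.52 against -1.06 and Chst11 at 0.0208 against -1.02.

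Aneurysm and smoke were compared to ask what differs between smoke-exposed aortae with and without an aneurysm. In endothelial-led nuclei of the aneurysm library capillary and fatty acid genes were higher on balance, and adhesion, interferon and handling stress genes were lower on balance, the last 2 lists being near 0 over all chosen nuclei. Over all chosen nuclei 1220 of 7683 genes were higher in aneurysm (15.9%) and 1611 were lower (21.0%), and median-of-ratios scaling, which moved the median over all genes from -0.05 to -0.22, made these 882 and 2060. Over endothelial-led nuclei 379 of 4477 were higher (8.47%) and 525 were lower (11.7%). Of the 982 higher and 726 lower genes of all chosen nuclei that could be compared in both sets, 267 and 304 were counted the same way in endothelial-led nuclei and 19 and 23 the opposite way. Most of the differences over all chosen nuclei were therefore not counted in endothelial-led nuclei.

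The clearest case was endothelial identity, on which the endothelial-led nuclei were themselves selected. Among genes with at least 20 UMIs, 19.1% were at least 1.5-fold higher and 28.9% lower over all chosen nuclei (median log2 -0.08), 13.8% and 18.9% over endothelial-led nuclei (-0.02), and 10.6% and 21.4% in large-vessel nuclei (-0.03). The 24 endothelial genes outside the rule had a median log2 ratio of 1.41 over all chosen nuclei, with 22 higher and 1 lower, and 0.15 over endothelial-led nuclei, with 2 higher and 2 lower. The macrophage list had medians of -2.21 (12 of 12 lower) and -1.29 (6 of 8 lower), and in large-vessel nuclei -2.14 (11 of 12 lower). Junction genes were at 1.20 over all chosen nuclei (13 of 17 higher) and at -0.0009 over endothelial-led ones (1 of 16 higher and 3 lower). Their direction thus turned with the set, as did that of the TGF-beta and BMP list (0.59 and -0.03), the venous list (0.51 and -0.22), the shear response list (0.52 and -0.07), the NRF2 list (-0.57 and 0.25), the AhR list (-0.23 and 0.05) and the proliferation list (-0.71 and 0.79, from 12 and 3 measured genes).

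Capillary genes remained higher. Their median was 1.91 over all chosen nuclei (14 of 17 higher) and 0.58 over endothelial-led nuclei (8 of 17 higher and 1 lower). Large-vessel nuclei had 0.51 (4 of 16 higher and 1 lower). Btnl9, a butyrophilin-like protein of capillaries, had 32.1 (16.0 to 57.5), 68.7 (51.0 to 90.6) and 244 (205 to 287) CPM in endothelial-led nuclei, a ratio of aneurysm to smoke of 3.54 (2.55 to 4.99). Over all other nuclei of the aneurysm library Btnl9 was at 4.64 CPM. Cd36 was 2.16-fold higher (1.94 to 2.39) in aneurysm in endothelial-led nuclei and 1.47-fold in large-vessel nuclei. Car4, a carbonic anhydrase of capillaries, was 3.36-fold higher (1.64 to 7.42) and Gpihbp1 3.49-fold (1.31 to 10.8). Plvap went the other way and was 2.197-fold lower (1.40 to 3.56), and Kitl and Aqp1, a water channel, had ratios of 0.974 (0.872 to 1.09) and 1.00 (0.791 to 1.27).

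The fatty acid handling list was at 1.51 over all chosen nuclei (17 of 22 genes higher, 1 lower), at 0.70 in endothelial-led nuclei (10 of 18 higher, 2 lower) and at 0.56 in large-vessel nuclei. Fabp4 was 1.66-fold higher (1.42 to 1.94). Pparg, the nuclear receptor that drives Cd36 and Fabp4, had 324 (267 to 390), 268 (232 to 309) and 573 (514 to 638) CPM, a ratio of aneurysm to smoke of 2.14 (1.79 to 2.57). Mgll was 1.95-fold higher (1.69 to 2.25). Adipocyte marker genes stood beside these at 833 CPM in smoke and 800 CPM in aneurysm in endothelial-led nuclei, and at 929 and 5669 CPM in non-endothelial nuclei. Over all chosen nuclei the adipocyte list was at 1161 and 1475 CPM. Because the endothelial-led nuclei were selected on that list, the part of adipocyte RNA in the fatty acid genes was not tested.

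Adhesion and inflammatory genes were lower on balance in the aneurysm library. The endothelial activation list had a median of -1.03 in endothelial-led nuclei, with 7 of 12 members at least 1.5-fold lower and 0 higher, -0.36 over all chosen nuclei, with 7 of 15 lower and 2 higher, and -0.48 in large-vessel nuclei, with 7 of 15 lower and 1 higher. Vcam1, which captures leukocytes, had 306 (251 to 371), 281 (243 to 322) and 79.5 (58.4 to 106) CPM, 3.53-fold lower (2.56 to 4.95) in aneurysm than in smoke. Room air and smoke overlapped, and aneurysm lay below both. Selp, the selectin on which leukocytes roll, had 304 (248 to 368), 452 (405 to 504) and 195 (161 to 233) CPM and was 2.33-fold lower (1.88 to 2.90), against 1.05-fold (0.963 to 1.14) in large-vessel nuclei. Irf1, an interferon-induced transcription factor, had 196, 187 and 74.4 CPM and was 2.51-fold lower (1.78 to 3.61). Icam1 had a ratio of 1.49 (0.996 to 2.24).

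In endothelial-led nuclei the macrophage, interferon and handling stress lists also had medians below 0. The interferon list was at -0.57 in endothelial-led nuclei (6 of 12 lower and 0 higher) and at -1.18 in large-vessel nuclei (15 of 20 lower), but at -0.0078 over all chosen nuclei (3 of 16 lower and 5 higher). The handling stress list was at -0.68 in endothelial-led nuclei (7 of 13 lower and 0 higher) and at -0.26 in large-vessel nuclei, against -0.0346 over all chosen nuclei (2 of 14 lower and 1 higher). Fosb, an immediate early gene, had 280, 340 and 184 CPM in endothelial-led nuclei and was 1.84-fold lower (1.46 to 2.33). Whether the handling of the tissue has a part in the lower adhesion genes was not tested. Venous genes were at -0.22 in endothelial-led nuclei, with 4 of 12 lower and 0 higher, and at 0.51 over all chosen nuclei, with 3 of 12 lower and 5 higher. Vcam1 and Selp stand in both the venous list and the endothelial activation list, so these lists are not separate. Vwf was 1.33-fold lower (1.15 to 1.55).

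**Figure D4:**
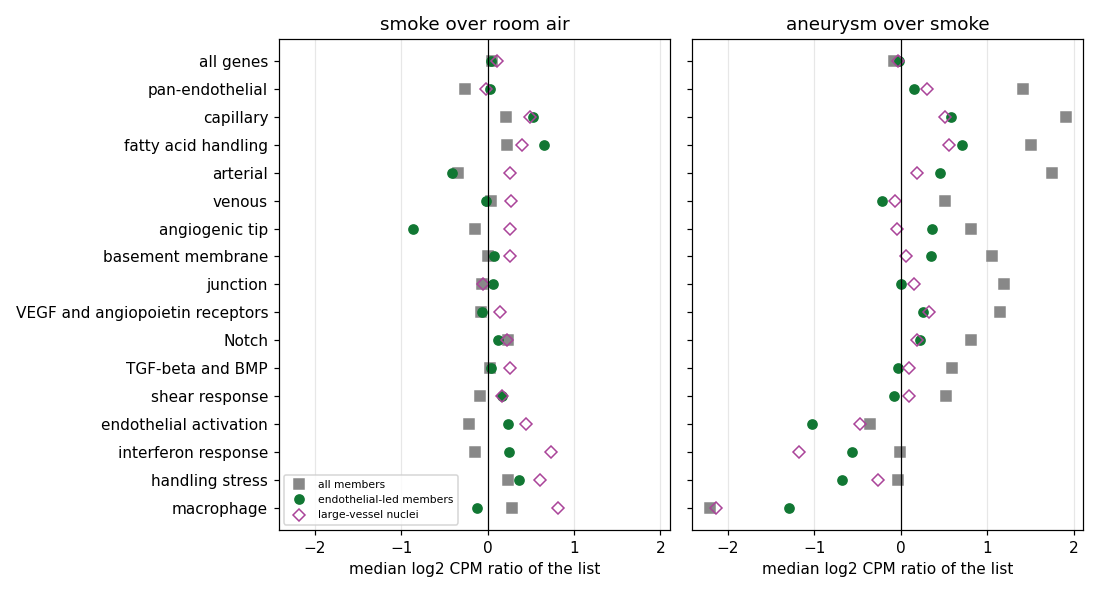
Median log2 CPM ratio (horizontal axis) of gene lists for smoke over room air (left) and aneurysm over smoke (right), over all chosen nuclei (grey squares), endothelial-led nuclei (green circles) and large-vessel nuclei (open diamonds). On the right the pan-endothelial and junction lists lie far from 0 for all chosen nuclei and near it for endothelial-led nuclei, while the endothelial activation list lies at -1.03 for endothelial-led nuclei.

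Vessel structure genes shifted less in endothelial-led nuclei than over all chosen nuclei. The basement membrane list was at 0.35 in endothelial-led nuclei (6 of 18 higher and 1 lower), with Col4a1 1.55-fold higher (1.30 to 1.85) and Lamb1 3.16-fold higher (1.67 to 6.35) in aneurysm. The angiogenic tip list was at 0.35 (4 of 10 higher and 0 lower), the arterial list at 0.45 (5 of 15 higher and 3 lower) and the list of VEGF and angiopoietin receptors at 0.26 (2 of 13 higher and 0 lower). Notch genes were at 0.22 (3 of 13 higher and 1 lower). The shear response list was at -0.07, with 0 of 11 past 1.5-fold in either direction. The medians over all chosen nuclei were 1.05 for the basement membrane list (12 of 18 higher, 1 lower), 0.81 for the tip list (6 of 11 and 2), 1.75 for the arterial list (12 of 17 and 1), 1.14 for the receptor list (10 of 15 and 1), 0.81 for Notch (8 of 16 and 3) and 0.52 for shear response (6 of 13 and 1). For Col4a1 and Lamb1 the smoke library was the lowest of the 3, and aneurysm lay between smoke and room air.

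The genes named by the bound of the ratio over all chosen nuclei were higher in endothelial-led nuclei by less. Ccdc85a was 6.63-fold higher in aneurysm over all chosen nuclei and 2.00-fold (1.80 to 2.24) over endothelial-led ones, and Ablim3 6.82-fold and 2.02-fold (1.71 to 2.38). Kcnc2, a fast potassium channel, had 207 (162 to 261), 227 (194 to 264) and 516 (460 to 577) CPM in endothelial-led nuclei, a ratio of 2.27 (1.88 to 2.77). Lepr, the leptin receptor, had 49.6 (28.9 to 79.5), 120 (95.8 to 147) and 277 (237 to 323) CPM and a ratio of 2.32 (1.78 to 3.04). The 3 intervals of Lepr did not overlap.

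Vwa3a had 73.0 (47.2 to 108), 39.9 (26.7 to 57.3) and 196 (162 to 235) CPM and was 4.92-fold higher (3.25 to 7.67), Ephb1 was 3.63-fold higher (2.12 to 6.46), and Cecr2, a chromatin remodelling factor, 2.48-fold (1.78 to 3.51). Slc35f1, a member of a family of nucleotide sugar transporters, had 1, 1 and 43 UMIs in endothelial-led nuclei, the 43 in 18 nuclei, and a ratio of 52.9 (9.003 to 2138). In large-vessel nuclei Slc35f1 was at 59.9, 37.3 and 130 CPM. Lars2 was 4.61-fold higher (4.03 to 5.29) and 3.92-fold in large-vessel nuclei, beside the levels over all other nuclei given above.

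Most of the genes named as lower in the aneurysm library rested on nuclei that were not endothelial-led. Ror1, a Wnt receptor, had 1636, 1916 and 348 CPM over all chosen nuclei, 5.50-fold lower (4.83 to 6.30) in aneurysm. In endothelial-led nuclei it had 143 (106 to 189), 81.1 (61.8 to 105) and 237 (199 to 280) CPM and was 2.92-fold higher (2.14 to 4.03). Its direction thus turned with the set. Grin2a, a glutamate receptor subunit, turned likewise, from 5.75-fold lower to 1.60-fold higher (1.04 to 2.48). Carmn, a smooth muscle long noncoding RNA, was 23.5-fold lower over all chosen nuclei and had 2, 2 and 1 UMIs in endothelial-led ones, and Hs6st2, 13.2-fold lower over all, was 1.46-fold lower (0.440 to 5.56). Cap2 was 14.2-fold lower over all chosen nuclei, and Ryr2 and Pak3, 9.03-fold and 8.30-fold lower over all, had ratios of 1.41 (0.446 to 4.56) and 1.38 (0.474 to 4.12) in endothelial-led nuclei, where 7 and 8 UMIs of Ryr2 and 8 and 9 of Pak3 in smoke and aneurysm left the direction unsettled.

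Of the genes named as lower, Dclk1 and Spp1 held in both sets. Dclk1, a microtubule-linked kinase, had 99.2 (68.7 to 139), 348 (306 to 393) and 96.4 (73.0 to 125) CPM in endothelial-led nuclei and was 3.61-fold lower (2.70 to 4.90) in aneurysm than in smoke, with smoke the only high library. Spp1, osteopontin, which plaque macrophages secrete, had 254 (203 to 313), 422 (376 to 472) and 134 (106 to 167) CPM in endothelial-led nuclei, 3.16-fold lower (2.46 to 4.10). Over all other nuclei Spp1 was at 818, 986 and 362 CPM, in the same order of libraries and above its level in endothelial-led nuclei. With the rule at 1000 UMIs the log2 ratio of Dclk1 was -0.69, against -2.93 over all chosen nuclei at full depth. Spp1 was at -1.89 against -2.85, and the higher gene Ephb1 at 0.86 against 3.45. Rcan2 was 7.27-fold lower over all chosen nuclei and 1.90-fold (0.934 to 4.09) over endothelial-led ones.

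**Figure D5:**
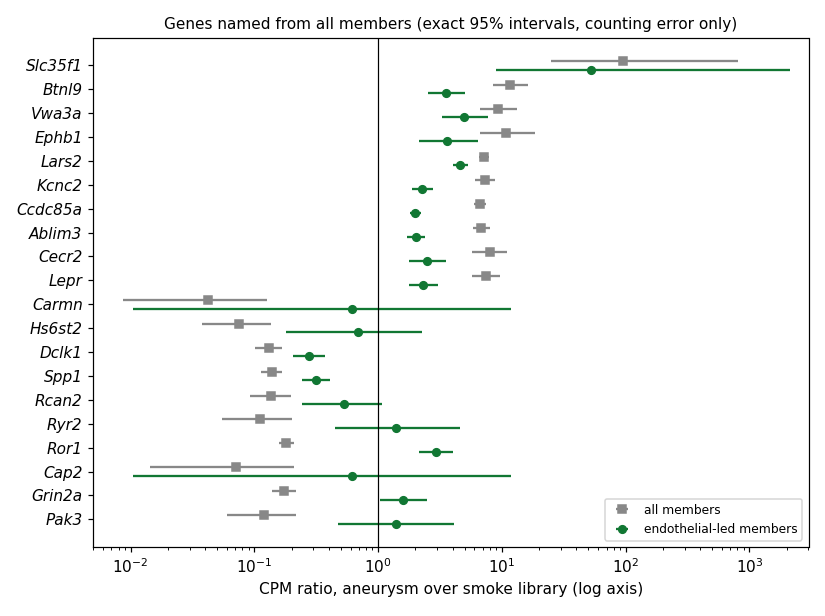
CPM ratio of aneurysm over smoke (log axis, exact 95% intervals) for the 20 named genes in all chosen nuclei (grey squares) and endothelial-led nuclei (green circles), with 1 marked by a line. The higher genes stay to the right of the line in both sets at smaller ratios, whereas Ror1, Grin2a, Ryr2 and Pak3 cross it. The green intervals of Carmn, Hs6st2, Rcan2, Ryr2, Cap2 and Pak3 span the line.

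Aneurysm and room air share their libraries with the comparisons above and differ in both exposure and aneurysm. Over all chosen nuclei 890 of 5300 genes were higher in aneurysm (16.8%) and 1046 were lower (19.7%), and over endothelial-led nuclei 378 of 3526 were higher (10.7%) and 406 were lower (11.5%). In endothelial-led nuclei capillary genes were higher on balance (median log2 1.01, 11 of 15 higher and 0 lower) as were fatty acid genes (1.04, 12 of 15 higher and 1 lower), and venous genes were lower (-0.64, 6 of 11 lower and 2 higher). All genes with at least 20 UMIs had a median of 0.01 there, with 18.3% higher and 16.8% lower. These lists were, over all chosen nuclei, at 2.06 (15 of 16 higher), 1.81 (13 of 18 higher and 2 lower) and 0.58 (3 of 11 lower and 5 higher), so that the venous list turned with the set, where all genes had 21.0% higher and 23.2% lower. Large-vessel nuclei had medians of 0.57 (7 of 14 higher and 0 lower), 0.80 (11 of 21 higher and 1 lower) and 0.17 (4 of 12 higher and 1 lower). All genes there had 13.8% higher and 15.2% lower. The capillary and fatty acid shifts were thus not shown to be particular to the microvascular nuclei. Chrm3 was 8.90-fold lower in endothelial-led nuclei, with a lower bound of 6.70, and Vcam1 3.86-fold lower (2.71 to 5.56). Ablim3, Btnl9, Cecr2 and Lepr were 4.51-fold to 7.59-fold higher, and Slc35f1 24.9-fold (4.24 to 1007). Among the genes named as lower over all chosen nuclei, Cytip had 6, 15 and 1 UMIs in endothelial-led nuclei, Aph1c had 7, 12 and 5, B3galt1 was 1.82-fold lower (1.12 to 2.98), and Ror1 turned to 1.66-fold higher (1.19 to 2.34).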

How the data were processed

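Single-nucleus RNA was measured in 3 libraries, 1 per group. The authors deposited unnormalized UMI counts of 33696 gene features in each barcode. Per the file headers they were made with cellranger 8.0.1, whereas Cell Ranger 2.2.0, STAR and mm10 stand in the submitters' processing notes, a conflict that was not resolved. Whether introns were counted, and on which strand, is not given in the labels or headers, and UMIs of overlapping genes cannot be told apart.

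UMIs were summed over the chosen nuclei of each library and divided by their total (CPM). Genes with 50 or more UMIs over a pair of libraries were compared (20 or more for gene lists, with a gene at 0 UMIs set at a floor of 3 counts). List counts use the 1.5-fold ratio alone. Members, lists and the rule for named genes were chosen with earlier results of these data known, and the endothelial-led subset after seeing these counts. Named genes are the rule genes and, per comparison and direction, the 10 (5 for aneurysm over room air) whose interval bound lay furthest from 1, with 30 or more UMIs in the higher library, UMIs in 10 or more nuclei, no nucleus holding over 20% of them, and a level no lower than over all other nuclei. Also named are the 15 genes highest and 10 lowest in all chosen nuclei against large-vessel nuclei, of which only some are described, and members of described lists. The intervals were computed on simulated Poisson counts with known changes. These were drawn by the model that the intervals assume, without the gathering of UMIs in single nuclei seen here, so they check the computation only. Python 3.11.15, numpy 2.4.6, scipy 1.17.1, pandas 2.3.3 and matplotlib 3.10.9 were used. Alternatives covered the depth minimum, the endothelial and large-vessel bounds, mitochondrial reads, shared barcodes, other-class nuclei, equal depth, scaling, UMI minimum, single nuclei and background RNA.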

Additional observations from a re-analysis of the deposited data

How the results depend on the processing

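With 1 library per group no replicate could be left out, and depth limits rare genes most in the aneurysm library. No paired analysis was possible because each group has 1 library. Alternatives that used endothelial-led nuclei, or nuclei with 5 or more endothelial genes, were added after seeing the data; the cause of a shift was not tested. The ratio of chosen shares, smoke over room air (1.36), was 1.68 with no large-vessel gene allowed, 1.08 in endothelial-led nuclei and 0.670, the opposite direction, without nuclei holding 3 or more genes of another class. The ratio of aneurysm to smoke (2.84) was 4.31 with 4 or more endothelial genes, 2.22 with no large-vessel gene, 11.2 without other-class nuclei, 5.47 in endothelial-led nuclei and 3.91 with 5 or more endothelial genes. The filter on other-class nuclei counts detected genes and so took out more nuclei where depth was greater, endothelial-led ones among them.

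For smoke over room air, 661 higher genes became 238 without other-class nuclei, 107 with the rule at 1000 UMIs, 375 in endothelial-led nuclei and 430 with 5 or more endothelial genes, and 345 lower genes became 192, 92 and, without the nucleus holding most UMIs of a gene, 193. For aneurysm over smoke, 1220 higher genes became 506 with 4 or more endothelial genes, 354 without other-class nuclei, 268 at 1000 UMIs, 379 in endothelial-led nuclei and 364 with 5 or more genes. The 1611 lower genes became 770, 325, 262, 525 and 512 in the same order, and 610 when a gene had to reach its level in other nuclei. At 1000 UMIs, without other-class nuclei and in endothelial-led nuclei fewer genes could be compared.

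Medians of aneurysm over smoke that were at least 1.5-fold from equality and changed sign were arterial (-0.31 at 1000 UMIs), Notch (-0.22 with no large-vessel gene), junction (-0.0868 without other-class nuclei, -0.0009 endothelial-led), TGF-beta and BMP (-0.19 at 1000 UMIs, -0.0347 endothelial-led) and proliferation (0.28 with 4 or more endothelial genes, 0.42 with no large-vessel gene, 0.40 without other-class nuclei, 0.34 at 1000 UMIs, 0.79 endothelial-led, 0.95 with 5 or more). Smaller ones also did. With 4 or more endothelial genes, without other-class nuclei, at 1000 UMIs, endothelial-led and with 5 or more, venous (0.51) went to -0.15, -0.37, -0.36, -0.22 and -0.26. In the last 4 of these, NRF2 (-0.57) went to 0.95, 0.21, 0.25 and 0.24, and shear response (0.52) to -0.0177, -0.0133, -0.0746 and -0.0819. AhR (-0.23) went to 0.48 without other-class nuclei, 0.32 as a mean over nuclei, 0.0548 endothelial-led and 0.13 with 5 or more. Interferon (-0.0078) and handling stress (-0.0346) changed sign in 1 setting each, and 15 medians of smoke over room air, at most 0.35 in size, in at least 1. Log2 ratios that changed sign were Col1a2 (-0.15 without other-class nuclei) and Chst11 (0.0208 at 1000 UMIs) for smoke over room air. For aneurysm over smoke, without other-class nuclei, at 1000 UMIs, in endothelial-led nuclei and with 5 or more genes, Ror1 was at 1.14, 0.57, 1.55 and 0.75 and Grin2a at 0.91, 0.67, 0.68 and 0.32. Ryr2 and Pak3 had under 20 UMIs over both libraries in endothelial-led nuclei and were not compared there. For aneurysm over room air Ror1 was at 0.23 at 1000 UMIs and 0.73 endothelial-led.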
